A study of Mus musculus with 5 samples.

Results

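The genes described here encode the proteins of the cytosolic ribosome and of the mitochondrial ribosome. They were chosen by name, as the protein-coding genes of the 19 autosomes in the GENCODE M1 annotation of the mouse genome (mm9) whose symbols begin with Rpl or Rps and a number, without the Rps6k kinases, or with Mrpl or Mrps and a number. This gave 207 of 21418 genes, of which 130 were cytosolic and 77 mitochondrial. By their names, 69 of the cytosolic genes encode a ribosomal subunit protein (39 Rpl and 30 Rps). The other 61 are retrocopies annotated as protein coding (symbols ending in -ps), paralogues and Rps19bp1, an Rps19-binding protein. The mitochondrial group held 76 subunit genes (47 Mrpl and 29 Mrps) and the retrocopy Mrps36-ps1. Rpl10, Rpl36a, Rpl39 and Rps4x lie on chromosome X and were not included.

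The series measured where the transcription factor Runx3 and the histone mark H3K4me1 lie in the genome of natural killer cells (NKC). Splenic NKC of ICR mice were isolated by negative selection and grown for 7 days with human IL-2 at 1000 units/ml, and the labels describe the cultured cells as all positive for NKp46. Chromatin of such IL-2-activated NKC was precipitated with a polyclonal Runx3 antibody in 2 libraries, with a monoclonal H3K4me1 antibody in 1 library, and with non-immune rabbit serum (NIS) in 2 control libraries. The mouse genotype beyond the strain, and the age, sex and number of mice, are not given in the labels. No library from cells without Runx3 or from resting cells was analysed here.

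Each mark is represented by a single list of peaks called on its joined reads against NIS. The lists hold the start and end of each peak but no height or score and no values per library, so no value below has a replicate error and sequencing depth cannot be read from them. The Runx3 list held 11616 autosomal peaks (median width over all chromosomes 704 bp) and the H3K4me1 list 34153 (median 689 bp). Among genes that mark cell types, Runx3 peaks were found in or within 5 kb of 8 of 8 NKC genes and 2 of 4 T cell genes. They were found at 0 of 3 B cell genes and 1 of 3 macrophage genes, against 29.5% of all genes. H3K4me1 peaks were found there at 7 of 8, 3 of 4, 1 of 3 and 1 of 3, against 40.9% of all genes. Intervals given below are 95% Wilson intervals and cover counting error only.

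Ribosomes make protein from mRNA. The cytosolic ribosome joins a 60S subunit, whose proteins are encoded by Rpl genes, with a 40S subunit, whose proteins are encoded by Rps genes. The mitochondrial ribosome has its own 39S (Mrpl) and 28S (Mrps) proteins, which are encoded in the nucleus, imported into mitochondria and used to make subunits of the respiratory chain. Genes for cytosolic ribosomal proteins are among the most highly transcribed in mammalian cells, are short, and have many retrocopies across the genome. Runx3 binds DNA through its Runt domain at the RUNX motif, and H3K4me1 marks enhancers and the flanks of active promoters.

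The DNA under the Runx3 peaks is shown first, since most of these peaks held a RUNX motif. For each group the 6 genes whose peak centre lay nearest the transcription start site (TSS) and whose peak held a motif are given. Each sequence is 30 bases of the strand in which the gene is read, 5′ to 3′, from mm9. Capitals mark the RUNX motif (the letters TGTGGT or TGTGGC and the forms TGCGGT or TGCGGC, or the reverse complement where the motif lies on the other strand) nearest the peak centre.
Rps18, chr17:34093032-34093061 (-): cgccatggtcgcTGCGGCtgccattccccc
Rpl26, chr11:68715090-68715119 (+): tctctttcctttTGCGGCcatcggtggatc
Rpl3, chr15:79913758-79913787 (-): tcgctctctatcTGCGGCgtgtggcggcga
Rps28, chr17:33961496-33961525 (-): ctgggtaccgcgTGCGGTctcgcgagagcg
Rps7, chr12:29320691-29320720 (-): gtaggttcgcggGCCGCAatgtggccgcgg
Rpl37, chr15:5066462-5066491 (+): ggggagggcggaGCCACAgcgccaggcacg
Mrpl52, chr14:55045668-55045697 (+): cggcgattgaaaACCACAttcaagatgtcg
Mrpl30, chr1:37947423-37947452 (+): gtcgccggtgagTGCGGTcgtgggagctag
Mrps18a, chr17:46247886-46247915 (+): agaaaccctcccGCCGCAcagcggctgcgc
Mrpl45, chr11:97177135-97177164 (+): ggctcggtgatcTGCGGCtaggctagcatc
Mrps27, chr13:100114762-100114791 (+): cggctcccatggTGCGGTgtgggatgctcc
Mrpl21, chr19:3282674-3282703 (+): gggcctgggaccTGCGGCcaaacttacctg

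In this set the motif nearest the centre was TGCGGC or TGCGGT in all but Rpl37 and Mrpl52. The middle of the motif lay 3 bp upstream of the TSS in Rps28, 19 bp downstream in Rpl26 and 35 bp upstream in Mrps18a. Over all bound members with a motif, the nearest motif was TGCGGT or TGCGGC in 16 of 21 cytosolic and 13 of 21 mitochondrial genes. Its median distance to the peak centre was 47 bp in the cytosolic and 69 bp in the mitochondrial genes. The nearest motif was not counted over the Runx3 peaks of other genes. These forms and distances therefore have no background and are not shown to be particular to the members.

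Longer upstream stretches show how far the sequence under these peaks varied. They were taken from bound subunit genes with no annotated exon in the 150 bases before the TSS. Rpl30 and Mrpl17 had the most RUNX motifs there in their groups (2 each, in capitals). Rpl27 had the peak nearest to a start, at 19 bp, among those without any RUNX motif.
Rpl30, chr15:34373396-34373545 (-): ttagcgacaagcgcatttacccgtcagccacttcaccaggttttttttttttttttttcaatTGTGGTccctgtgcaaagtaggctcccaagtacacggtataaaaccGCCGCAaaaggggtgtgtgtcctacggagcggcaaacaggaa
Mrpl17, chr7:112959614-112959763 (-): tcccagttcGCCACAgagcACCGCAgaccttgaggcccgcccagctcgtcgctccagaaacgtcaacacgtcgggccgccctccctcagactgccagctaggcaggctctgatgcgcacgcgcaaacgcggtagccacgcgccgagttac
Rpl27, chr11:101303462-101303611 (+): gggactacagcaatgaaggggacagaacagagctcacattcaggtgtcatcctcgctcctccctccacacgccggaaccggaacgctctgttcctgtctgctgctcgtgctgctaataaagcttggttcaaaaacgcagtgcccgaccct

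Runx3 peaks lay at the starts of about 3 in 10 subunit genes of either ribosome. A peak was centred within 1 kb of the TSS in 21 of 69 cytosolic subunit genes (30.4%) and in 24 of 77 mitochondrial genes (31.2%). Over all autosomal protein-coding genes the share was 11.7%. It was 21.0% over the 9656 genes with a CpG-rich start, defined as a GC content of at least 50% and an observed to expected CpG ratio of at least 0.6 within 500 bp of the TSS. Such a start was found in 62 of 69 cytosolic subunit genes (89.9%) and 61 of 77 mitochondrial genes (79.2%), against 45.1% of all genes. The members were not tested against other genes, and these shares stand side by side as a description.

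The 4 subunit classes had overlapping intervals. A Runx3 peak within 1 kb was found in 11 of 39 Rpl genes (28.2%), 10 of 30 Rps genes (33.3%), 17 of 47 Mrpl genes (36.2%) and 7 of 29 Mrps genes (24.1%). Of the 61 cytosolic copies and paralogues, 3 had such a peak (4.92%), and none of the 3 has a retrocopy symbol. They were Rps19bp1 (centre 41 bp downstream, chr15:80094410-80094980), Rpl36al, the autosomal paralogue of the X-linked Rpl36a, and Rpl22l1, a paralogue of Rpl22.

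**Figure D1:**
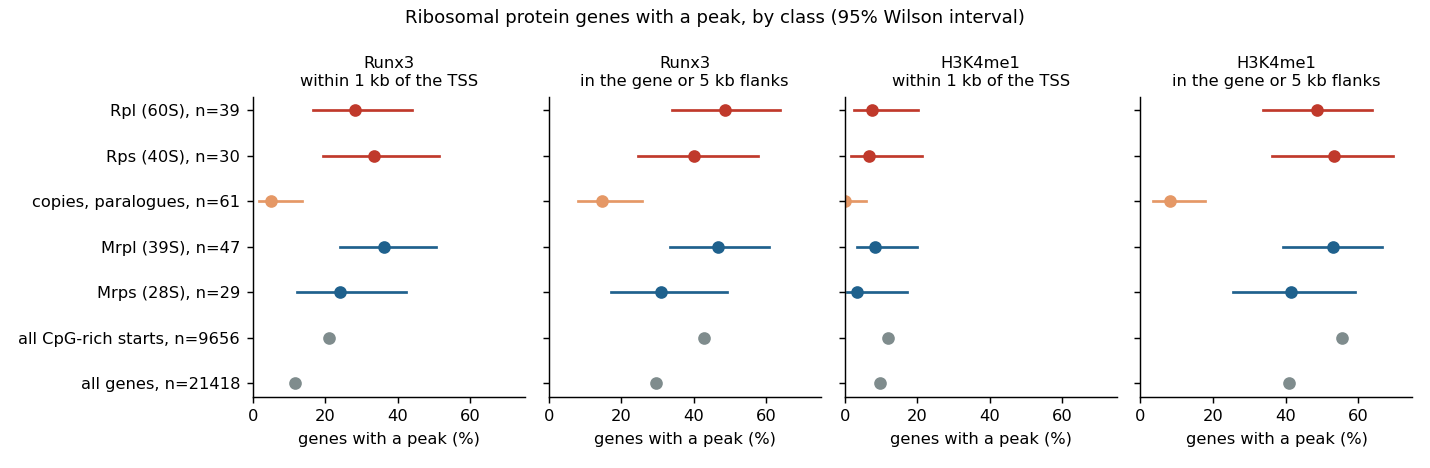
Share of genes with a peak (x axis, percent) by class (y axis, with the number of genes n), for Runx3 and H3K4me1 peaks centred within 1 kb of the TSS or in the gene and its 5 kb flanks. Points are the shares and lines their 95% Wilson intervals; the intervals of the 4 subunit classes overlap in each panel, and the cytosolic copies and paralogues lie lowest.

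Among 60S genes, the peaks nearest the TSS were those of Rpl26 (centre 2 bp downstream, chr11:68714723-68715451), Rpl3 (8 bp downstream, chr15:79913337-79914320), Rpl27 (19 bp downstream, chr11:101303304-101303959) and Rpl37 (30 bp upstream, chr15:5066064-5067103). Rpl3 is a protein of the region around the peptidyl transferase centre. Rpl13 followed at 46 bp (chr8:125625975-125626618). Rpl13a, which is also known for silencing selected mRNAs in myeloid cells, had a peak 64 bp upstream of its TSS (chr7:52391515-52392187) that lay nearer still to Flt3l, at 49 bp. The remaining 60S genes with a peak within 1 kb were Rpl10a, Rpl22, Rpl30, Rpl15 and Rpl19, at 76 to 264 bp. The Rpl15 peak was nearer to the start of Nkiras1 (34 bp) than to that of Rpl15 (221 bp), and the peak of Rpl19 was the widest of the cytosolic group (1316 bp).

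Among 40S genes, Rps18 had the peak closest to a start of all members, 1 bp upstream (chr17:34092587-34093308), with Vps52 starting 190 bp from the same centre. Rps28 followed at 14 bp (chr17:33961186-33961801), next to Ndufa7, and Rps7 at 21 bp (chr12:29320513-29321082). Rps14, the 40S gene lost in the 5q- syndrome of the marrow, had its peak 39 bp upstream. Rps15 (49 bp, chr10:79754921-79755530) and Rps19 (52 bp, chr7:25668942-25669943) were also close to the start. Rps19 is the gene most often mutated in Diamond-Blackfan anaemia. Rps10 and Rps12 were at 118 and 131 bp. Rps3, with its peak centre 840 bp into the gene, was the farthest cytosolic member inside the 1 kb limit, and Rpl38, at 1379 bp, was the nearest cytosolic subunit gene outside it.

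Among 39S genes, Mrpl52 (24 bp upstream, chr14:55045377-55046068) and Mrpl30 (32 bp upstream, chr1:37946945-37947635) had the nearest peaks. The Mrpl30 peak was 34 bp from the start of the neighbouring gene Mitd1. Mrpl45 was at 52 bp (chr11:97176698-97177466), Mrpl21 at 84 bp (chr19:3282657-3283313), Mrpl40 at 86 bp (chr16:18876448-18877100) and Mrpl16 at 91 bp upstream (chr19:11844484-11845096). Mrpl17, Mrpl49, Mrpl54, Mrpl33, Mrpl53, Mrpl18, Mrpl41, Mrpl47, Mrpl4, Mrpl23 and Mrpl48 made up the rest, at 148 to 870 bp. The Mrpl49 peak lay 16 bp from the start of Fau, which encodes a 40S protein as a fusion with a ubiquitin-like protein, and the Mrpl48 peak 17 bp from that of Rab6.

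Among 28S genes, Mrps18a had the nearest peak (32 bp, chr17:46247681-46248253). Mrps27, a pentatricopeptide repeat protein of the small subunit, was at 58 bp upstream and its neighbour Ptcd2 at 50 bp from the same centre (chr13:100114317-100115049). Mrps7 (87 bp, chr11:115464948-115465705) and Mrps17 (107 bp, chr5:130221237-130221721) followed, then Mrps16, Mrps23 and Mrps18b at 114 to 301 bp. The nearest mitochondrial gene outside the limit was Mrps2, whose peak was 2091 bp upstream.

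**Figure D2:**
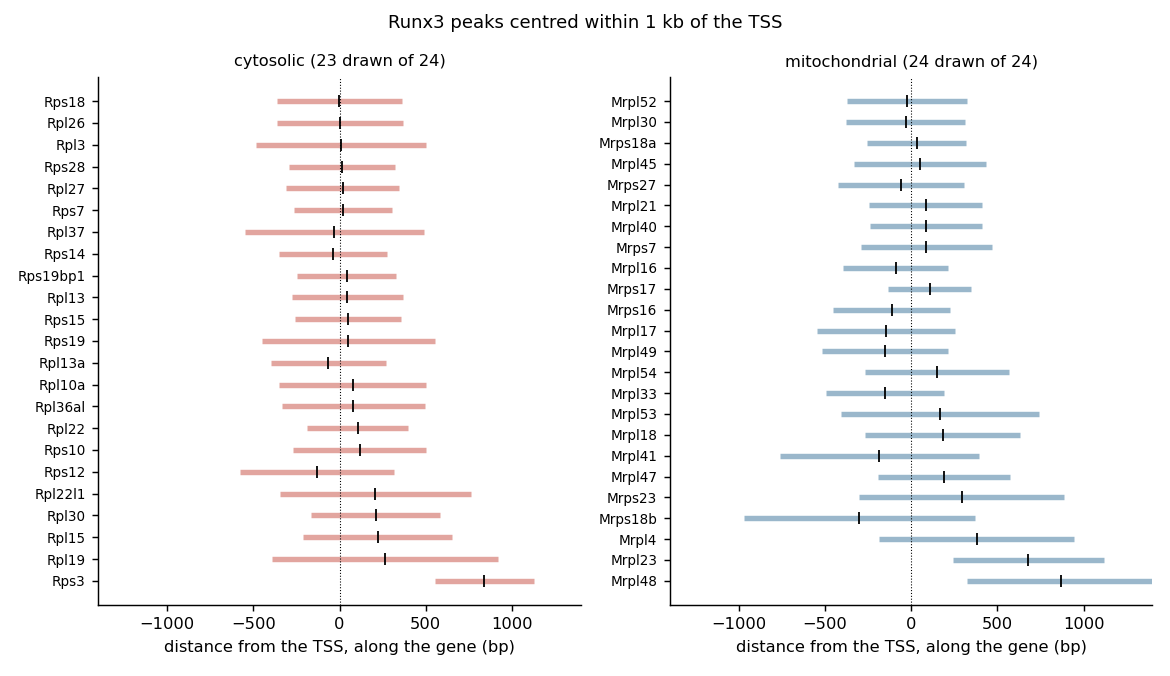
Runx3 peaks centred within 1 kb of the TSS of cytosolic (left) and mitochondrial (right) ribosomal protein genes; bars span each peak and ticks mark its centre, in bp from the TSS along the gene (dotted line at 0), ordered by distance. 1 of the 24 cytosolic genes is not drawn; of 24 peaks in each group, 16 cytosolic and 9 mitochondrial peaks were centred within 100 bp of the start.

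The peaks of the cytosolic subunit genes had the smaller median distance to the start. To the member's own start, the median distance was 52 bp for the 21 peaks at cytosolic subunit genes. For the 24 mitochondrial peaks it was 149.5 bp. The 2211 Runx3 peaks within 1 kb of any autosomal protein-coding start had a median of 134 bp, measured to the nearest start of any such gene. Some member peaks lay nearer to another gene's start, as at Mrpl49 (Fau, 16 bp) and Mrpl48 (Rab6, 17 bp). Measured like the background, such peaks would have shorter distances, so the members cannot be called nearer or farther than it. Within 100 bp of the member's own TSS lay 14 of 21 cytosolic (66.7%) and 9 of 24 mitochondrial peaks (37.5%). Of all promoter peaks, 41.2% lay within 100 bp of the nearest start, which is not the same measure. Within 200 bp the counts were 17 of 21 (81.0%) and 19 of 24 (79.2%). These distances were not tested. Their intervals overlapped, at 45.4% to 82.8% and 21.2% to 57.3% for the 100 bp limit. Median widths were 722 and 762.5 bp, beside 766 bp for all promoter peaks.

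Some Runx3 peaks lay near the starts of further genes. Of the 24 mitochondrial promoter peaks, 11 (45.8%) lay within 1 kb of the TSS of at least 1 further protein-coding gene. At cytosolic subunit genes 4 of 21 peaks (19.0%) did. Of all promoter peaks 14.8% did, and of those at CpG-rich starts 17.6%. These backgrounds count each peak once, whereas member peaks were reached through a gene, which gives shared peaks more weight. Over all genes, 2509 had such a peak but the peaks numbered 2211, so counted by gene the background share would be higher than 14.8%. The partners were Mitd1, Pnpla7, Ndufb5, Rab6, Gga3, Ptcd2, Hira, Tcp1, Ppp1r10, Ighmbp2 and Fau. Of these, Tcp1 encodes a subunit of the chaperonin TRiC and Ndufb5 a subunit of respiratory complex I. A peak between such starts cannot be given to either gene by position.

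Compared directly by symbol, as all 130 cytosolic against all 77 mitochondrial genes, Runx3 peaks within 1 kb were found in 24 (18.5%) and 24 (31.2%). The odds ratio was 0.502 (95% confidence interval 0.247 to 1.02), and Fisher's exact test, two-sided, gave p = 0.0418 and an adjusted p of 0.0836 over the 4 tests of peaks. Genes are not replicates, so these p-values describe the lists. Among subunit genes alone the odds ratio was 0.948 (0.440 to 2.03) and the same exact test gave p = 1, so the lower cytosolic share came with the copies. In the copies a median of 69.6% of the 40-base stretches within 500 bp of the TSS occur once in the genome, and 48 of 61 fall under 90%. Reads were 40 bp long and only uniquely aligned reads were kept, so there were fewer positions there at which a read would be kept. Its part in the low share of the copies was not tested. Only 6 of 61 copies had a CpG-rich start.

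At the subunit genes the start regions were mostly unique in sequence. The median share of unique 40-base stretches was 97.4% in cytosolic subunit genes and 100% in mitochondrial genes, and 13 of 69 and 2 of 77 were under 90%. Cytosolic subunit genes with a Runx3 peak had a median of 99.5% and those without 96.0%. The lowest values were at genes without a peak such as Rps29 (61.4%), Rpl24 (72.1%) and Rpl37a (76.0%). The part of uniqueness in the shares was not tested at the subunit genes either.

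In the wider window of the gene and its 5 kb flanks, Runx3 peaks were found in 31 of 69 cytosolic subunit genes (44.9%) and 31 of 77 mitochondrial genes (40.3%), against 29.5% of all genes and 42.7% of genes with a CpG-rich start. Windows of ribosomal protein genes are short. The median gene length was 3232 bp for cytosolic subunit genes and 7654 bp for mitochondrial genes, against 15535 bp for all genes and 25433.5 bp for genes with a CpG-rich start. By symbol the comparison was 40 of 130 against 31 of 77, with an odds ratio of 0.661 (0.352 to 1.24, adjusted p = 0.234, Fisher's exact test). For subunit genes it was 1.18 (0.581 to 2.41, exact p = 0.737).

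Most bound members held a single peak. Of the cytosolic genes, 36 had 1 Runx3 peak in this window and 4 had 2, namely Rpl13a, Rpl35a, Rpl38 and Rps2. Of the mitochondrial genes, 28 had 1, Mrpl14 and Mrpl49 had 2, and Mrpl33 had 6. Mrpl33 is annotated over 105038 bp, and its last peak, 101216 bp from its TSS, was nearer to the starts of the neighbouring genes Bre and Rbks. The second peak of Rps2 also lies in the flank of Rpl3l, a paralogue of Rpl3 known from muscle.

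The forms of the RUNX motif were counted apart. Of the promoter peaks at the subunit genes of the cytosolic ribosome, 17 of 21 held TGCGGT or TGCGGC (81.0%) and 10 of 21 TGTGGT or TGTGGC (47.6%). At mitochondrial genes the counts were 19 (79.2%) and 10 of 24 (41.7%). All 2211 promoter peaks held TGCGGT or TGCGGC in 74.7% and TGTGGT or TGTGGC in 71.0%. The 1765 of them at CpG-rich starts did so in 80.3% and 68.4%, so the share with TGCGGT or TGCGGC at the members was close to that background. Any of the 4 forms was found in 18 of 21, 21 of 24 and 94.9%. The single form TGCGGC was found in 15 of 21 cytosolic and 15 of 24 mitochondrial peaks, beside 55.6% of all promoter peaks and 61.9% of those at CpG-rich starts. These shares were not tested against each other. Peaks without any form included those of Rpl27, Rps15, Mrpl16, Mrpl47 and Mrpl54.

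The start regions themselves carried RUNX letters whether bound or not. Within 500 bp of the TSS at least 1 form occurred in 64 of 69 cytosolic subunit genes (92.8%), 68 of 77 mitochondrial genes (88.3%) and 86.7% of all genes. By symbol the counts were 120 of 130 and 68 of 77, with an odds ratio of 1.58 (0.541 to 4.58, p = 0.333, Fisher's exact test, two-sided, a test on its own). The forms TGCGGT and TGCGGC within 250 bp were more frequent at genes with a Runx3 peak within 1 kb, a comparison that was not tested. They occurred in 16 of 21 Runx3-bound (76.2%) and 20 of 48 other (41.7%) cytosolic subunit genes, and in 15 of 24 (62.5%) and 18 of 53 (34.0%) mitochondrial genes. Over all genes the shares were 62.7% with and 31.0% without a peak, and over genes with a CpG-rich start 68.5% and 52.3%, both differences in the same direction. TGTGGT or TGTGGC differed in opposite directions between the groups. With and without a peak they occurred in 47.6% and 37.5% of cytosolic subunit genes, and in 37.5% and 43.4% of mitochondrial genes. Over genes with a CpG-rich start they occurred in 47.3% and 34.8%.

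Other letters near the start were counted in the same way. CGGAAG, the core of many ETS factor sites, occurred on either strand within 250 bp of the TSS in 47 of 69 cytosolic subunit genes (68.1%) and 56 of 77 mitochondrial genes (72.7%), against 27.8% of all genes and 43.8% of those with a CpG-rich start. Among the promoter peaks themselves, 14 of 21 (66.7%) and 21 of 24 (87.5%) held it, beside 60.4% of all promoter peaks and 65.9% of those at CpG-rich starts. By gene, CGGAAG within 250 bp occurred in 66.7% of cytosolic subunit genes with a Runx3 peak within 1 kb and 68.8% of those without. At mitochondrial genes the shares were 83.3% and 67.9%, and at genes with a CpG-rich start 57.0% and 40.3%. A run of at least 8 pyrimidines in the sense strand within 50 bp of the TSS, the feature known as the TOP motif of translational control when it begins the mRNA, was found in 46 of 69 cytosolic subunit genes (66.7%). It was found in 24 of 77 mitochondrial genes (31.2%), 36.3% of all genes and 30.7% of those with a CpG-rich start. AAGATGGC, letters bound by YY1, occurred within 250 bp in 10 of 69 (14.5%) and 16 of 77 (20.8%), against 5.15% of all genes and 7.40% of those with a CpG-rich start. GGGCGG, bound by SP1, occurred in 51 of 69 (73.9%) and 48 of 77 (62.3%), above the 53.1% of all genes and below the 85.6% of those with a CpG-rich start. A match of letters is not a measured site.

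H3K4me1 was counted in the same windows. A peak was centred within 1 kb of the TSS in 5 of 69 cytosolic subunit genes (7.25%) and 5 of 77 mitochondrial genes (6.49%), against 9.83% of all genes and 12.0% of those with a CpG-rich start. The 95% intervals of the members, 3.13% to 15.9% and 2.81% to 14.3%, include both backgrounds. Counting any peak that overlapped the 1 kb around the TSS by at least 1 bp gave 7 of 69 cytosolic subunit genes (10.1%) and 15 of 77 mitochondrial genes (19.5%), against 13.4% of all genes and 17.7% of those with a CpG-rich start. The cytosolic genes with a centred peak were Rpl12 (566 bp upstream), Rps3a (620 bp upstream), Rpl35a (548 bp upstream), Rpl36 (927 bp upstream) and Rps10 (11 bp upstream). The mitochondrial genes were Mrpl33 (584 bp upstream), Mrpl53 (933 bp upstream), Mrpl34 (705 bp upstream), Mrpl12 (613 bp upstream) and Mrps24 (350 bp downstream). So 9 of these 10 peaks were centred upstream of the start, 8 of them 548 to 933 bp away. By symbol the counts were 5 of 130 and 5 of 77 (odds ratio 0.578, 0.128 to 2.60, adjusted p = 0.505, Fisher's exact test).

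Overlap of Runx3 and H3K4me1 peaks at the starts was counted next. Of the 24 promoter peaks of Runx3 in each group, 1 overlapped an H3K4me1 peak, at Rps10 (chr17:27773071-27773841) and at Mrpl33 (chr5:31898813-31899496). Of all promoter peaks 11.8% did, and of those at CpG-rich starts 7.42%. In the gene and its 5 kb flanks, H3K4me1 was found in 35 of 69 cytosolic subunit genes (50.7%) and 37 of 77 mitochondrial genes (48.1%), against 40.9% of all genes and 55.6% of those with a CpG-rich start. Both marks were present there at 19 cytosolic subunit genes, Runx3 alone at 12, H3K4me1 alone at 16 and neither at 22. The mitochondrial counts were 21, 10, 16 and 30. As shares, both and neither made up 27.54% and 31.88% of cytosolic subunit genes, and 27.27% and 38.96% of mitochondrial genes. Over all genes they made up 21.98% and 51.55%, and over genes with a CpG-rich start 31.02% and 32.67%. These shares were not tested against each other. Of the copies and paralogues, 50 of 61 had neither.

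By symbol, H3K4me1 in the gene and flanks was found in 40 of 130 cytosolic and 37 of 77 mitochondrial genes, with an odds ratio of 0.482 (0.258 to 0.897). Fisher's exact test gave p = 0.0171 and an adjusted p of 0.0685. For subunit genes the odds ratio was 1.08 (0.537 to 2.19, exact p = 0.869). For both marks the intervals of the subunit comparison in this window span odds ratios from 0.537 to 2.41, so equal shares are not shown.

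Downstream of the start, H3K4me1 peaks lay nearer in mitochondrial genes than in cytosolic subunit genes. The middle 50% of the first downstream peaks were centred 1171 to 1669 bp from the TSS in the mitochondrial and 1987 to 3226 bp in the cytosolic subunit genes that had any. At positions 750, 1000 and 1250 bp downstream of the TSS, 0 of 69 cytosolic subunit genes were covered by an H3K4me1 peak, and at 2000 bp 12 of 69 were (17.4%). Of the mitochondrial genes, 12 of 77 were covered at 1250 bp (15.6%) and 4 at 2000 bp (5.19%). Genes with a CpG-rich start were covered in 7.39% at 1250 bp and 6.10% at 2000 bp. At the TSS itself the cover was 1 of 69 cytosolic subunit genes and 1 of 77 mitochondrial genes.

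**Figure D3:**
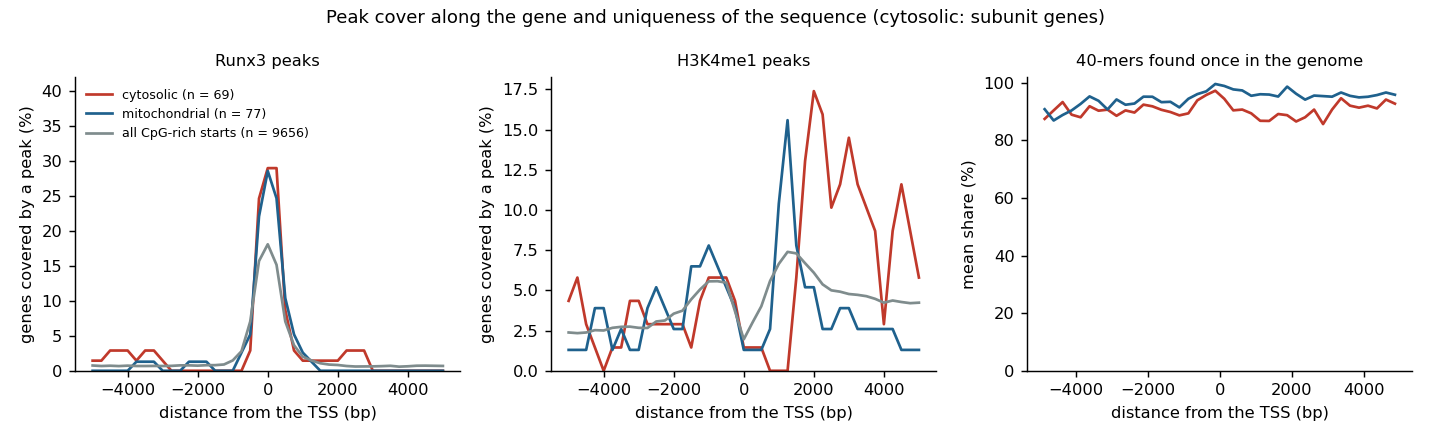
Share of genes covered by a Runx3 peak (left) or an H3K4me1 peak (middle) at positions every 250 bp from 5 kb upstream to 5 kb downstream of the TSS, and mean share of 40-base stretches found once in the genome in 250 bp steps (right). Red, cytosolic subunit genes; blue, mitochondrial genes; grey, all genes with a CpG-rich start. Runx3 cover is highest at the TSS (20 of 69 cytosolic, with the same count at 250 bp, and 22 of 77 mitochondrial), whereas H3K4me1 is highest at 1250 bp in mitochondrial genes and at 2000 bp in cytosolic genes.

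Taken gene by gene, 28 of 69 cytosolic subunit genes (40.6%) had an H3K4me1 peak centred within 5 kb downstream of the TSS, and in 0 of them was the first such peak under 1500 bp away. The median distance was 2300 bp and the highest 4575 bp (Rpl18). Of the mitochondrial genes, 18 of 77 (23.4%) had such a peak, 10 of them under 1500 bp, with a lowest distance of 350 bp (Mrps24), a median of 1270 bp and a highest of 3774 bp (Mrpl54). Over all genes 18.2% had one, with a median of 1653 bp, and for genes with a CpG-rich start the values were 25.3% and 1675.5 bp. The distances of the groups overlap beyond 1500 bp. This split at 1500 bp was chosen after the profile was seen, and it was not tested.

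Both subunits of the cytosolic ribosome took part. A downstream peak was found at 13 of 39 Rpl genes with a median of 1923 bp and at 15 of 30 Rps genes with a median of 3001 bp. Examples among 60S genes were Rpl6 (1651 bp), Rpl34 (1681 bp), Rpl14 (1756 bp) and Rpl27 (1772 bp), and among 40S genes Rps27 (2076 bp) and Rps26 (2104 bp). In 18 of the 28 genes the peak centre lay inside the gene and in 10 beyond its 3′ end, as at Rps27, a gene of 981 bp, and Rpl36, of 849 bp. In the mitochondrial group Mrpl43 (1023 bp), Mrps2 (1060 bp), Mrpl2 (1090 bp), Mrpl45 (1160 bp), Mrpl4 (1203 bp), Mrps26 (1208 bp), Mrps5 (1214 bp), Mrpl17 (1216 bp) and Mrpl39 (1324 bp) followed Mrps24. The peak lay inside the gene in 16 of these 18 genes. Some first downstream peaks lay nearer to another gene's start, as at Mrpl43 (Peo1, 654 bp), Mrps34 (Nme3, 647 bp) and the cytosolic Rps15 (Apc2, 595 bp). Such a peak cannot be given to either gene by position.

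A Runx3 peak within 1 kb of the TSS was present at 9 of the 28 cytosolic genes and 8 of the 18 mitochondrial genes with a downstream H3K4me1 peak. It was present at 21 of all 69 cytosolic subunit genes (30.4%) and 24 of all 77 mitochondrial genes (31.2%). The share over all genes with a downstream H3K4me1 peak was not counted, and no link between the marks was tested. Sequence uniqueness differed between the groups over this stretch. From the TSS to 1500 bp downstream the mean share of unique 40-base stretches ranged from 86.8% to 94.5% in cytosolic subunit genes and from 95.5% to 98.9% in mitochondrial genes. From 1500 to 3500 bp, where most of the first downstream cytosolic peaks were centred, it was 85.7% to 94.7% and 94.2% to 98.7%. Its part in the position of the peaks was not tested.

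**Figure D4:**
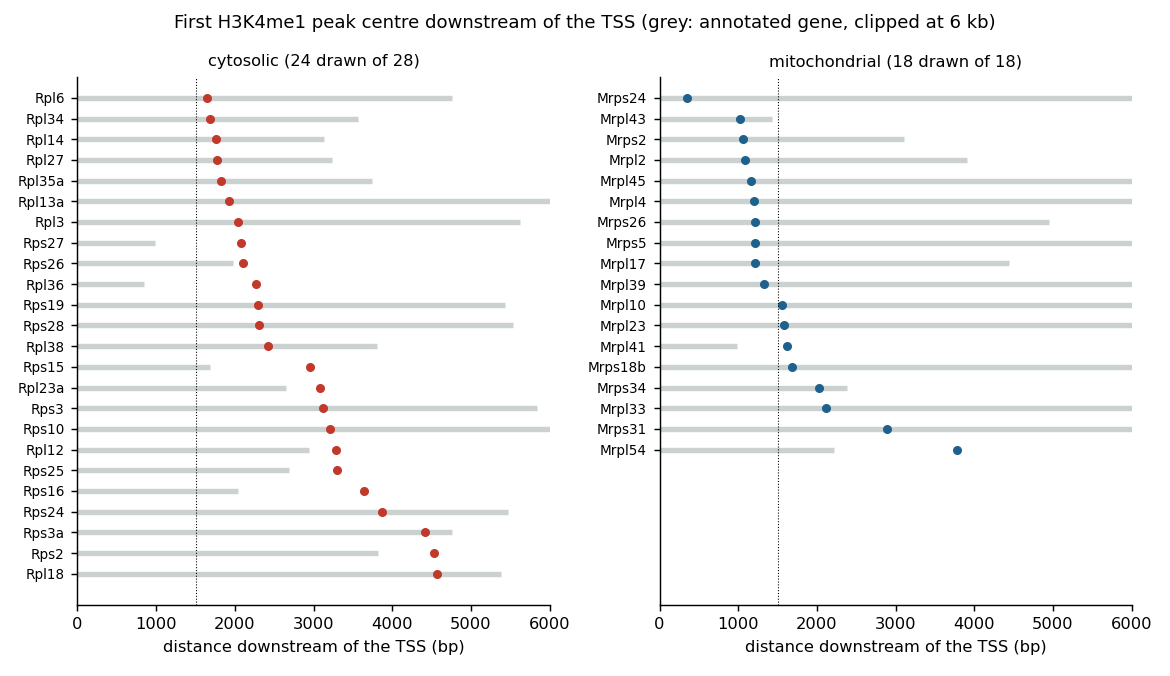
Distance of the first H3K4me1 peak centre downstream of the TSS (points, bp) for the 28 cytosolic subunit genes and 18 mitochondrial genes with a peak within 5 kb; grey bars show the annotated gene, clipped at 6 kb, and the dotted line marks 1500 bp. Of the 28 cytosolic genes 4 are not drawn; all cytosolic points lie beyond 1500 bp, and 10 mitochondrial points lie under 1500 bp.

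A window of 2 kb around the TSS takes in part of this difference. H3K4me1 was then found in 12 of 69 cytosolic subunit genes (17.4%) and 23 of 76 mitochondrial subunit genes (30.3%), against 17.6% of all genes and 24.3% of those with a CpG-rich start. The odds ratio was 0.488 (p = 0.0822, Fisher's exact test), which does not pass the threshold of 0.05 even before adjustment. The adjusted p was 0.110 when this p-value was set among the by-symbol p-values of the other tests of peaks, which include the copies. By symbol, with the copies, the odds ratio was 0.285 (adjusted p = 0.00467, the same exact test).

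Other genes of ribosome assembly and translation, listed by name, were counted beside the same backgrounds, 11.7% of all genes and 21.0% of those with a CpG-rich start for Runx3 within 1 kb. Of 6 cytosolic ribosomal protein genes with other kinds of symbol, Rplp0 (78 bp), Rplp2 (325 bp) and Fau (16 bp) had a Runx3 peak within 1 kb. Of 24 genes of nucleolar assembly and RNA polymerase I, 6 did, among them Rrn3 (2 bp), an initiation factor of RNA polymerase I, and the box C/D proteins Nop58 (37 bp) and Nop56 (90 bp). Of 15 initiation and elongation factor genes 4 did, and of 17 genes of mitochondrial translation 4 did, among them Mtif2 (36 bp upstream), a mitochondrial initiation factor. The lists are small and were not tested.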

How the data were processed

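The data were ChIP-seq peak lists from IL-2-activated NKC (2 Runx3, 1 H3K4me1 and 2 NIS libraries). Per the labels and the paper's methods, the authors aligned 40 bp reads to mm9 with ELAND, kept unique reads, and called peaks with MACS 1.4 on joined reads against NIS, scaling the larger dataset to the smaller. The deposited values are peak starts and ends in bp, with no score. Starts, counted from 0 in the lists, are given from 1.

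A peak was assigned by its centre. TSSs were the 5′ ends of GENCODE M1 genes, and sequences and 40-mer counts came from the mm9 genome. A two-sided Fisher's exact test set cytosolic against mitochondrial genes, and the p-values of the 4 tests of peaks were adjusted together (Benjamini-Hochberg). In an alternative setting, the new p-value was adjusted with the main by-symbol p-values of the other tests of peaks. No set was tested against all other genes. The members and lists were chosen with earlier results of these data known. By rule, genes were named that have a peak of either mark within 1 kb, or 2 or more Runx3 peaks in the gene and its 5 kb flanks, and values were given for the 10 of each group nearest the TSS. Values of further bound genes, the genes of lowest sequence uniqueness and those with downstream H3K4me1 peaks were chosen after their values were seen. A few named genes are not reported here. Alternatives were other windows, flanks, starts and overlap rules (at least 1 bp), wider peaks, subunit genes only, and neighbouring members counted once. Restriction to CpG-rich or unique starts, combined settings, the CpG-rich background and the downstream profile were chosen after seeing the data. Peak assignment, motif search, uniqueness and the test were tested on simulated data. The tools were samtools 1.23.1, pysam 0.24.0, numba 0.67.0, scipy 1.17.1, numpy 2.4.6, matplotlib 3.10.9 and python 3.11.15.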

Additional observations from a re-analysis of the deposited data

How the results depend on the processing

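In the main windows, the 4 comparisons of peaks between cytosolic and mitochondrial genes by symbol turned on the 61 copies and paralogues. With subunit genes only, the odds ratio was 0.948 for Runx3 within 1 kb and changed direction to 1.18 for Runx3 in the gene and flanks, 1.11 for H3K4me1 within 1 kb and 1.08 for H3K4me1 in the gene and flanks (1.03 with an overlap of 1 bp, 1.06 with neighbouring members counted once). With CpG-rich starts only it changed to 1.14, 1.30 and 1.21 for the first 3 of these, and without members under 90% unique 40-mers to 1.06, 1.29 and 1.09. For H3K4me1 in the gene and flanks these restrictions gave 0.721 and 0.746. The threshold of 0.05 was passed in 4 settings by symbol. These were H3K4me1 at the TSS with an overlap of at least 1 bp (odds ratio 0.273, adjusted p = 0.0208) or a 2 kb window (0.285, adjusted p = 0.00467), and H3K4me1 in the gene and flanks with an overlap of 1 bp (0.475, adjusted p = 0.0490) or with neighbouring members counted once (0.470, adjusted p = 0.0465, Fisher's exact tests). With subunit genes only, none of these 4 passed. H3K4me1 at the TSS nevertheless kept its direction there, with an odds ratio of 0.462 for the overlap of 1 bp and 0.488 for the 2 kb window. Fisher's exact tests gave p = 0.163 and p = 0.0822 there, and both odds ratios were nearer to 1 than with the copies. A difference among subunit genes is therefore not shown in these settings. The RUNX motif comparison changed to 0.991 within 250 bp. The other 27 alternatives kept the direction and the side of the threshold. With any annotated transcript start, H3K4me1 within 1 kb was found in 10 of 77 mitochondrial and 11 of 130 cytosolic genes. The causes were not tested beyond these restrictions.

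No paired analysis was possible because the lists pool the libraries and carry no replicate numbers. For the same reason no replicate was left out. The lists hold no scores, so peaks at or above the median width stood in for a stricter list, with an odds ratio of 0.461 for Runx3 within 1 kb. Peak lists record what passed a threshold, so a gene without a peak is not shown to be unbound.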
